A study of Mus musculus with 8 samples.

Results

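Injured mouse kidney was compared with sham-operated kidney at day 14, across every gene that could be tested. The comparison used the 3 libraries labelled uIRI and the 2 labelled sham, 5 of the 8 libraries of the study, grouped by their titles and treatment labels. The other 3 libraries, from uIRI kidney that received MSC, entered the fit only to help estimate the spread between replicates. All 8 were labelled wild type (WT) and renal tissue, and all were made by sequencing messenger RNA. The label uIRI is not spelled out. It is the usual short form of unilateral ischaemia-reperfusion injury, where 1 kidney loses its blood flow for a time and regains it. The labels used here give neither strain nor age, nor how long the clamp stayed on, nor what was done with the opposite kidney. They also do not say whether replicates are different animals, and p-values then reflect the spread among these libraries alone, which may be technical.

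The kidney tubule is a polarised epithelium that reclaims filtered water, salts and nutrients through a brush border of microvilli and is packed with mitochondria. Clamping the artery starves it of oxygen, and the proximal tubule, which lies in the cortex and outer medulla, is known to be the segment hit hardest. In the weeks that follow, tubules can regrow or remain dedifferentiated while leukocytes and fibroblasts collect between them. The lists used here look beyond injury markers, respiration, copper and senescence, to cell shape, signalling, small-molecule metabolism, channels, sugar chains, coagulation and RNA handling.

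Of 34745 genes listed, 16576 had enough counts to be tested, and 9044 of them (54.6%) passed the threshold of an adjusted p of 0.05. Of the genes tested, 28.3% were higher and 26.3% lower in uIRI, and 36.4% were called with a change of at least 2-fold. The values of the 3 uIRI libraries lay wholly above or below those of the 2 sham libraries for 77.1% of genes tested. These shares are the background for every count below. The median log2 change over all genes was 0.06. Scaling by library size alone, without the TMM factors that correct for a few genes taking up many reads, moved that median to 0.73 and the calls to 9044 higher and 1989 lower. Changes are therefore read relative to the median gene, and where that scaling turns the median of a gene list the value is given with the calls on that scale.

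Depth was 24300112, 24137944 and 18426077 counts in uIRI 1, 2 and 3 and 14588506 and 14185677 counts in sham 1 and 2. In each library 50% of all counts came from 479 and 562 genes in sham 1 and 2, and from 1371 to 1492 genes in uIRI. Of 15 kidney-defining genes, all 15 were detected and 13 were lower in uIRI, with a median log2 change of -2.71, so the tissue label fitted both groups. Summed markers of leukocytes reached 1139, 932 and 1096 CPM (counts scaled to library size and by TMM) in uIRI against 202 and 156 in sham, and 11 of 13 were higher. Those of fibroblasts and pericytes reached 3735, 2232 and 1715 CPM against 248 and 375, and 10 of 10 were higher. Urothelial markers differed between the sham libraries, at 4.08 CPM in sham 1 and 80.8 CPM in sham 2, against 106, 57.7 and 67.5 CPM in uIRI. The sum of 9 red blood cell genes was 425 CPM in sham 2, 125 CPM in sham 1 and 80.7, 62.3 and 50.2 CPM in uIRI. Without Slc4a1, also expressed by intercalated cells, a choice made after seeing the data, it was 311 CPM in sham 2, 59.7 CPM in sham 1 and 74.3, 50.3 and 34.1 CPM in uIRI. Sham 2 alone then lay above the other libraries. In bulk tissue, fewer cells of a type and less RNA per cell cannot be told apart, and the part of these shifts in cell markers in the results that follow was not tested.

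Single libraries are given below in the order uIRI 1, 2 and 3, then sham 1 and 2, in CPM. A log2 change is uIRI minus sham with its standard error (SE, n = 3 against 2), and adjusted p-values come from the quasi-likelihood test of edgeR over all genes tested. The plot of gene lists sets the members of each list side by side.

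**Figure D1:**
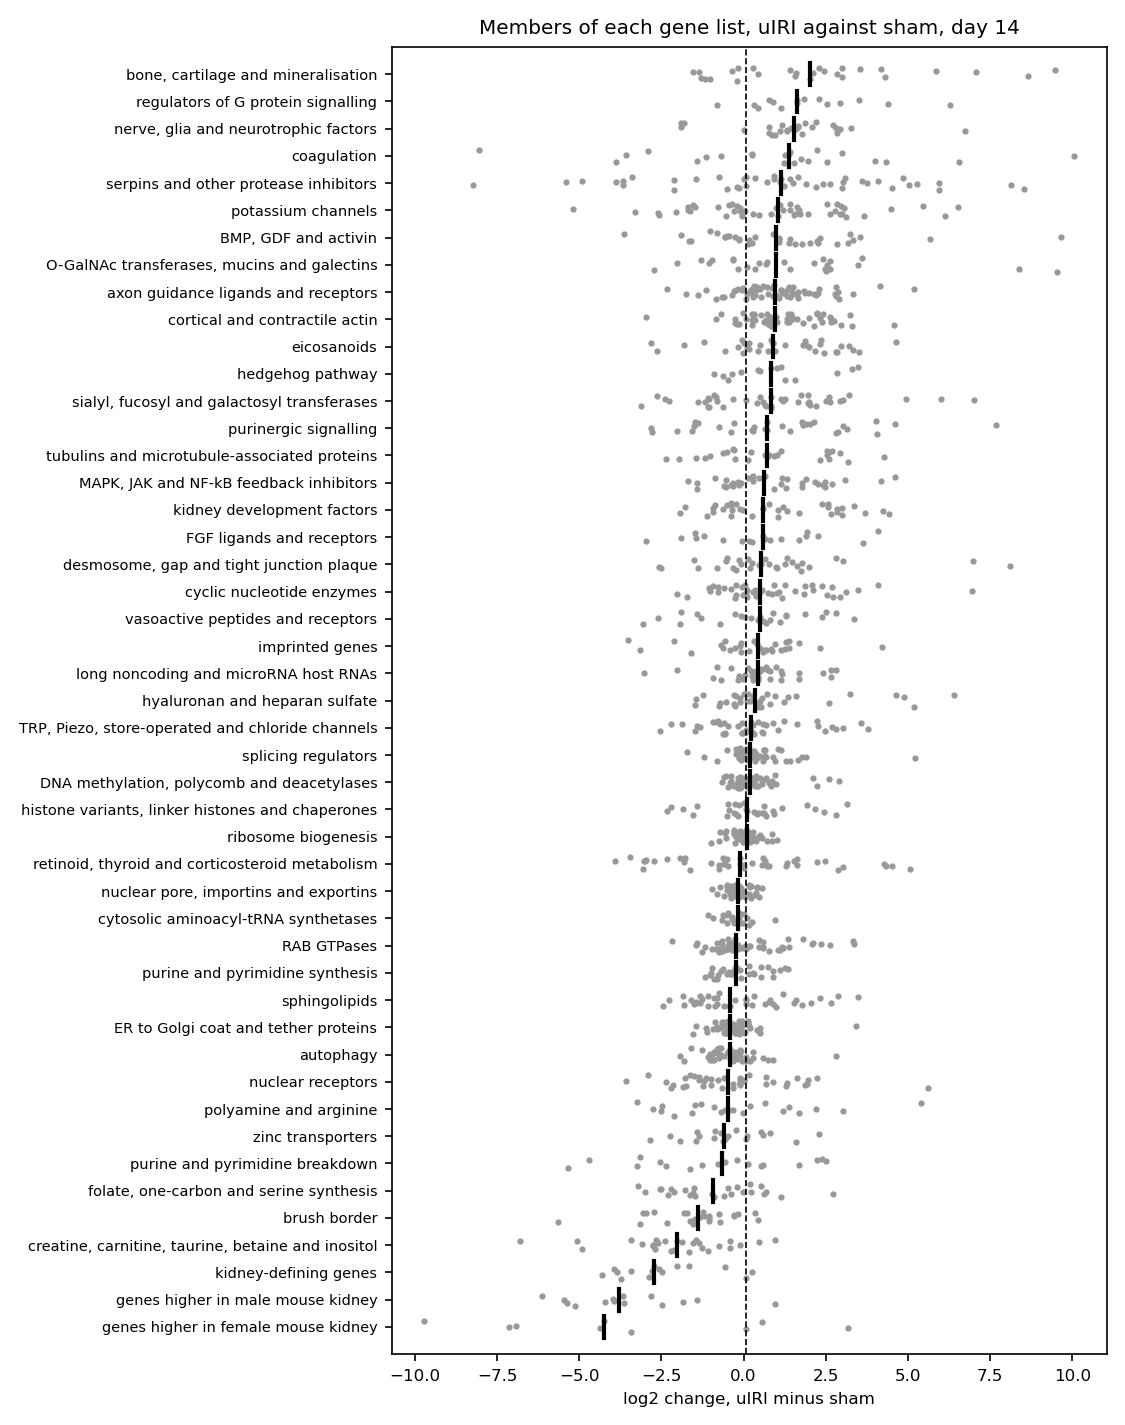
Log2 change, uIRI minus sham, of each tested member (grey points) of the gene lists described here, with the list's median (black bar), on a linear axis. The dashed line is the median of all tested genes, 0.06. Bone, cartilage and mineralisation genes have the highest median among the lists plotted, 2.01, and genes listed as higher in female kidney the lowest, -4.23.

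Genes of the apical brush border of the tubule were lower. Of 26 brush border genes, 21 were lower, 0 were higher and 5 were not called, with a median of -1.40 against 0.06 for all genes. Ggt1, the gamma-glutamyl transferase that starts glutathione breakdown on the microvilli, stood at 103, 228 and 190.1 CPM in uIRI against 1598 and 1096 in sham, a log2 change of -2.95 ± 0.35 (adjusted p = 0.000225). Mep1b, a subunit of the metalloprotease meprin, stood at 5.49, 12.1 and 7.06 CPM in uIRI against 529.5 and 289.9 in sham, a change of -5.64 ± 0.71 (adjusted p = 0.00028). Both genes were far below sham in every uIRI library, and uIRI 1 was the lowest of the 3. Treh, which encodes the disaccharidase trehalase, fell by 3.15 on the log2 scale, and Pdzk1, a scaffold that holds transporters at the brush border, by 2.72. Eps8, which caps actin at microvillus tips, fell by 1.53.

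The cytoskeleton moved the other way. Of 57 genes of cortical and contractile actin, 36 were higher and 3 lower, with a median of 0.96, and of 27 tubulins and microtubule-associated proteins 14 were higher and 4 lower, with a median of 0.70. Actn1, the alpha-actinin of stress fibres and focal adhesions, stood at 269, 278 and 197 CPM in uIRI against 34.9 and 38.5 in sham (2.76 ± 0.19, adjusted p = 2.95e-05). Its paralogue Actn4, well known from the podocyte, did not share this: 494, 563 and 489 CPM in uIRI against 498 and 536 in sham, with a 95% interval of -0.34 to 0.33 for the log2 change. So Actn1 was several times higher while Actn4 lay within a narrow interval around 0, which with library size alone became a rise of 0.66. Tpm4, a cytoplasmic tropomyosin, rose by 2.23 ± 0.21. Capg and Was, an actin capping protein and the haematopoietic activator of actin branching, rose by 3.24 ± 0.24 and 3.29 ± 0.22; Was and Lcp1 are leukocyte genes, and the leukocyte marker sums above rose beside them.

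Several tubulins were among the rises, named by smallest p and not by size of change. Tubb5 stood at 421, 406 and 334 CPM in uIRI against 74.8 and 78.4 in sham (2.34 ± 0.16, adjusted p = 2.92e-05). Tuba1a, common in neurons and in growing cells, stood at 263, 219 and 193 CPM against 35.4 and 38.7 (2.60 ± 0.19). The groups were well apart for both genes. Tubb6 and Tubb2b rose by 2.69 ± 0.23 and 2.52 ± 0.30. Map7, which stabilises microtubules in epithelia, fell instead, from 195 and 201 CPM in sham to 56.2, 79.1 and 84.5 in uIRI (-1.44 ± 0.19).

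Of 31 genes of desmosomes, gap junctions and tight junction plaques, 14 were higher and 6 lower, with a median of 0.53. Gjb1, a connexin, the subunit of gap junctions, of the proximal tubule and liver, stood at 5.56, 10.5 and 11.8 CPM in uIRI against 59.0 and 46.5 in sham (-2.51 ± 0.29, adjusted p = 0.0002). Gjb5, a connexin of skin and other stratified epithelia, had 536 counts over the uIRI libraries (5.99, 9.35 and 4.85 CPM) and 1 count over sham, in sham 2, a ratio of 145 with an exact 95% counting interval of 25.9 to 5735. It was present in all 3 uIRI libraries and nearly absent from sham. Panx1, a channel that releases ATP from stressed cells, rose from 1.75 and 2.12 CPM to 14.2, 12.5 and 14.0 (2.80 ± 0.21). The plaque genes Pkp4 and Cgnl1 fell by 1.51 and 1.39.

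Genes with known sex bias in the mouse kidney were strongly reduced. Kap, the androgen-regulated protein of the proximal tubule, was the second largest loss of reads after a mitochondrial transcript, at 647, 2508 and 1109.5 CPM in uIRI against 27642 and 15785 in sham (-3.93 ± 0.59, adjusted p = 0.00066; -4.63 without uIRI 2). Of 14 genes listed as higher in male kidney, 13 were lower and 1 was higher, with a median of -3.8 (-4.58 without uIRI 2). Cyp7b1, an oxysterol and androgen hydroxylase, stood at 10.4, 7.77 and 7.49 CPM in uIRI against 482 and 225 in sham (-5.36 ± 0.37, adjusted p = 2.85e-05; -4.69 without sham 1). Acsm3, a medium-chain acyl-CoA synthetase, fell from 1666 and 1019 CPM to 12.6, 31.9 and 13.4 (-6.12 ± 0.67). Slc7a13, an aspartate and glutamate carrier of the late proximal tubule, fell by 5.13 (by 5.72 without uIRI 2). The groups did not overlap for any of these 4 genes, and sham 1 was above sham 2 for each. Gusb, the lysosomal beta-glucuronidase, was the exception and rose from 63.3 and 59.7 CPM to 140.0, 97.7 and 122 (0.97 ± 0.17).

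Genes listed as higher in female kidney did not move in the opposite direction. Of 9 tested, 6 were lower, 1 was higher and 2 were not called, with a median of -4.23. Slc22a7, an organic anion transporter, fell from 568 and 303 CPM to 2.12, 5.24 and 1.84 (-7.14 ± 0.60, adjusted p = 5.28e-05; -7.77 without uIRI 2). Prlr, the prolactin receptor, fell by 4.23 on the log2 scale, and Abcc3, an efflux pump of the basolateral membrane, rose by 3.17 ± 0.39 (4.14 without sham 2). Both lists come from general knowledge of the mouse kidney, and the bias of single members can differ between strains. Most members are expressed in the proximal tubule, and 13 of 15 kidney-defining genes were lower beside them. Counts of Y-linked genes were present in all 5 libraries.

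Small-molecule metabolism of the tubule was lower well beyond respiration. Of 27 genes for creatine, carnitine, taurine, betaine and inositol, 21 were lower and 2 higher, with a median of -2.04. Bhmt2, which remethylates homocysteine, stood at 3.27, 9.83 and 8.76 CPM in uIRI against 263 and 174 in sham (-4.91 ± 0.43, adjusted p = 6.03e-05). Dmgdh, an enzyme of betaine breakdown, stood at 2.49, 10.6 and 7.91 CPM against 279.8 and 188 (-5.07 ± 0.52). All 3 uIRI libraries lay at a small part of sham for both genes. Csad, of taurine synthesis, fell by 3.09, and Aldh9a1 and Tmlhe, which act in carnitine synthesis, by 2.74 and 1.87. Gatm, the first step of creatine synthesis, fell from 1134 and 1491 CPM to 98.4, 264 and 225 (-2.74 ± 0.36).

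Folate and one-carbon genes followed, with 14 of 26 lower, 2 higher and a median of -0.94. Ahcy, which clears S-adenosylhomocysteine after methylation reactions, stood at 19.9, 33.2 and 27.7 CPM in uIRI against 259.6 and 168 in sham (-2.99 ± 0.25, adjusted p = 5.15e-05). Shmt2 and Aldh1l1, of the mitochondrial and cytosolic folate cycle, fell by 2.53 and 2.54. Mthfd1l, the mitochondrial enzyme that releases formate, was 1 of the 2 that rose, from 1.94 and 1.57 CPM to 11.1, 12 and 11.3 (2.71 ± 0.23). One-carbon genes of the same compartment, Shmt2 and Mthfd1l, thus moved apart. Slc46a1, a folate carrier, fell by 1.78.

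In arginine and polyamine metabolism, 12 of 23 genes were lower and 6 higher, and the median was -0.49, or 0.17 if only library size is used for scaling, with 9 higher and 8 lower. The list held a reciprocal pair. Ddah1, which breaks down the nitric oxide synthase inhibitor ADMA, fell from 541 and 466 CPM to 71.1, 155 and 119.8 (-2.13 ± 0.28, adjusted p = 0.000325). Ddah2, its relative, rose from 14.0 and 17.4 CPM to 77.0, 68.2 and 69.7 (2.19 ± 0.22, adjusted p = 0.000106). Odc1, which makes putrescine and is driven by androgens in mouse kidney, fell by 2.48, and Sms by 1.56, whereas Smox, which oxidises spermine, rose by 1.21 ± 0.15.

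Of 30 genes of nucleotide synthesis, 10 were lower and 6 higher, with a median of -0.25 (0.42 on the library-size scale, with 14 higher and 0 lower). The ribonucleotide reductase subunits Rrm1 and Rrm2, needed for DNA synthesis, rose by 1.10 ± 0.15 and 1.25 ± 0.22. Among 18 breakdown genes, 8 were lower and 5 higher, with a median of -0.66 (0.01 on the library-size scale, with 7 higher and 8 lower). Dnase1, the secreted nuclease of tubule and urine, stood at 6.53, 33.2 and 27.0 CPM in uIRI against 659 and 487 in sham (-4.69 ± 0.58, adjusted p = 0.000267). Dpys, of pyrimidine breakdown, fell from 35.3 and 29.1 CPM to 0.168, 0.917 and 1.37 (-5.34 ± 0.55). Samhd1, a dNTP hydrolase abundant in myeloid cells, went up instead, from 38.1 and 44.6 CPM to 178, 149 and 254 (2.23 ± 0.25), and Gda, guanine deaminase, rose by 2.40 ± 0.31.

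Lipid mediators were mostly higher. Of 35 eicosanoid genes, 19 were higher and 5 lower, with a median of 0.90. Hpgds, the haematopoietic prostaglandin D synthase, stood at 44.3, 33.6 and 32.4 CPM in uIRI against 1.46 and 1.47 in sham (4.64 ± 0.32, adjusted p = 2.85e-05). Ptger4, a prostaglandin E2 receptor, stood at 37.1, 32.9 and 37.4 CPM against 4.96 and 5.16 (2.82 ± 0.19). The 2 groups lay far apart with little spread within either. Alox5ap, which presents arachidonate to 5-lipoxygenase, rose by 3.34 ± 0.23, and Ptgir, the prostacyclin receptor, by 2.96 ± 0.26. Of 41 sphingolipid genes, 18 were lower and 11 higher, with a median of -0.40 (0.27 on the library-size scale, with 18 higher and 12 lower). Gal3st1, which makes the sulfatides of the tubule membrane, fell from 39.7 and 47.1 CPM to 11.1, 12.1 and 13.8 (-1.82 ± 0.15). S1pr2, a receptor of sphingosine 1-phosphate, rose from 4.66 and 6.26 CPM to 47.3, 35.8 and 37.1 (2.87 ± 0.25).

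Of 45 genes of retinoid, thyroid and corticosteroid metabolism, 13 were higher and 16 lower, with a median of -0.12 (0.55 on the library-size scale, with 19 higher and 12 lower). Aldh1a2, which makes retinoic acid and is best known from the embryo, stood at 103, 116 and 81.0 CPM in uIRI against 4.08 and 4.60 in sham (4.52 ± 0.25, adjusted p = 2.37e-05). Stra6, the membrane receptor for retinol-binding protein, stood at 87.8, 115 and 60.2 CPM against 3.01 and 5.62 (4.34 ± 0.37, adjusted p = 5.46e-05). Genes of retinol uptake and of its oxidation were thus both among the rises. Bco2, which cleaves carotenoids, fell by 2.34. Dio1, the deiodinase that activates thyroid hormone in liver and kidney, fell from 45.2 and 55.0 CPM to 4.65, 8.25 and 5.51 (-3.03 ± 0.25, adjusted p = 5.28e-05). Rarg, a retinoic acid receptor, rose by 1.63 ± 0.21.

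Of 40 nuclear receptors, 17 were lower and 10 higher, with a median of -0.46 (0.20 on the library-size scale, with 14 higher and 12 lower). Esrrb, an orphan receptor of the distal nephron, stood at 2.96, 5.21 and 7.30 CPM in uIRI against 50.7 and 71.2 in sham (-3.57 ± 0.39, adjusted p = 0.000144). Vdr, the vitamin D receptor, stood at 67.1, 147 and 114 CPM against 510.5 and 451 (-2.14 ± 0.28), and Ppard and Nr1h3, receptors for fatty acids and oxysterols, fell by 1.84 and 1.76.

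Ion channels split by gene rather than by family. Of 49 potassium channel genes, 19 were higher and 11 lower, with a median of 1.04. Kcnj15, an inward rectifier of the proximal tubule, stood at 39.3, 65.3 and 65.5 CPM in uIRI against 686 and 443 in sham (-3.32 ± 0.30, adjusted p = 6.88e-05). Kcnk6, a leak channel, stood at 20.8, 14.3 and 17.6 CPM against 1.65 and 2.58 (3.04 ± 0.29). Kcnn4, the calcium-gated channel of leukocytes and fibroblasts, rose by 3.67 ± 0.41 (4.42 without sham 1). Among 43 TRP, Piezo, store-operated and chloride channel genes, 13 were higher and 15 lower, with a median of 0.23. Trpm2, which opens under oxidative stress, rose from 1.65 and 1.29 CPM to 19, 13.1 and 20.3 (3.57 ± 0.29), and Trpv6, an epithelial calcium channel, rose by 2.70 ± 0.25. Trpc1 and the endosomal exchanger Clcn3 fell by 1.89 and 1.49.

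Of 20 zinc transporters, 10 were lower and 3 higher, with a median of -0.59 (0.08 on the library-size scale, with 7 higher and 6 lower). Slc39a8, an importer of zinc and manganese, stood at 18.5, 14.9 and 16.9 CPM in uIRI against 139 and 102 in sham (-2.84 ± 0.37, adjusted p = 0.000331). Slc30a2 and Slc30a1, exporters into vesicles and out of the cell, fell by 1.95 and 1.36. Slc39a6, an importer linked to cell migration, rose from 9.23 and 11.7 CPM to 36.5, 33.4 and 25.7 (1.61 ± 0.19).

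**Figure D2:**
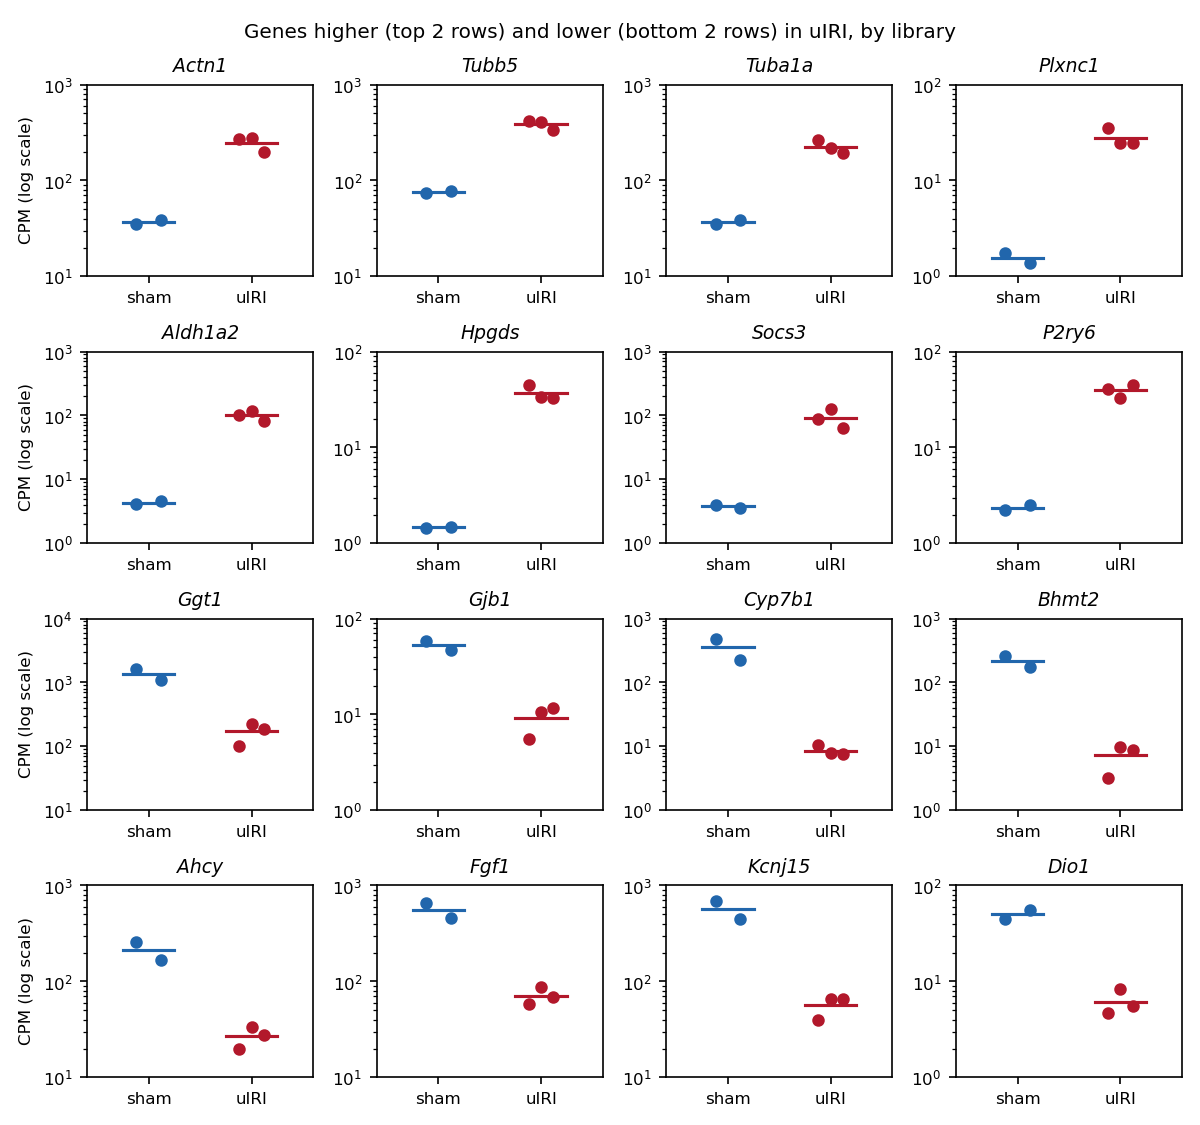
Expression of 16 genes in each library, as TMM-scaled CPM on a logarithmic axis (red, the 3 uIRI libraries; blue, the 2 sham libraries; bar, group mean). The top 8 panels are genes higher in uIRI and the bottom 8 genes lower, and in no panel do the groups overlap.

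Guidance cues first described in the nervous system were widely higher. Of 62 axon guidance ligands and receptors, 35 were higher and 6 lower, with a median of 0.97. Plxnc1, a semaphorin receptor, stood at 35.0, 24.4 and 24.5 CPM in uIRI against 1.75 and 1.38 in sham (4.16 ± 0.28, adjusted p = 2.86e-05). Unc5a, a netrin receptor that can signal cell death, stood at 11.7, 11.8 and 10.7 CPM against 1.46 and 1.75 (2.82 ± 0.22). Each uIRI library was several times above both sham libraries. Ephb6, an ephrin receptor without kinase activity, rose by 2.82 ± 0.24, and Nrp2, a coreceptor for semaphorins and VEGF, by 1.97 ± 0.23. Sema4g, a membrane semaphorin, was among the 6 lower, falling from 102 and 89.2 CPM to 10.8, 23.8 and 22.0 (-2.34 ± 0.29). The ligand Slit3 rose by 3.34 ± 0.42 (4.15 without sham 2).

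In the hedgehog pathway, in which the receptor Patched restrains Smoothened until a ligand binds, 6 of 15 genes were higher and 1 lower, with a median of 0.84 (0.25 without uIRI 1). The transcription factor Gli1 stood at 24.2, 13.5 and 13.7 CPM in uIRI against 1.36 and 2.12 in sham (3.29 ± 0.57, adjusted p = 0.00136). Ptch1, which like Gli1 is a known target of the pathway, was not called: 58.3, 46.4 and 49.8 CPM in uIRI against 59.9 and 72.8 in sham (-0.37 ± 0.16, adjusted p = 0.0835). The coreceptors Cdon and Boc rose by 1.56 ± 0.18 and 1.13 ± 0.18. Sufu, the inhibitor of the Gli factors, fell by 0.91, a call that was lost with library size alone.

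Of 19 fibroblast growth factors and receptors, 6 were higher (31.6%) and 5 lower (26.3%), shares close to those of all genes, with a median of 0.60. Fgf1 stood at 57.6, 86.5 and 68.9 CPM in uIRI against 661 and 454 in sham (-2.97 ± 0.26, adjusted p = 6.4e-05), the largest fall in level among them by a wide margin. Fgf9 fell from 29.1 and 29.4 CPM to 5.69, 6.27 and 11.3 (-1.92 ± 0.29), and the receptors Fgfr3 and Fgfr4 fell by 1.21 and 1.49, whereas Fgfr1 rose by 0.60 ± 0.13. In the BMP, GDF and activin list 16 of 36 were higher and 6 lower, with a median of 0.98. Bmp7, a survival factor of the tubule, fell from 75.2 and 68.3 CPM to 18.2, 25.5 and 28.1 (-1.59 ± 0.20, adjusted p = 0.000265). Bmp1, which despite its name is a protease that trims procollagen, rose from 14.3 and 16.5 CPM to 170.1, 136 and 107 (3.16 ± 0.26). Among secreted antagonists, Nbl1 rose by 3.33 ± 0.30, and Grem1 had 400 counts in uIRI against 2 in sham 2 and 0 in sham 1, a ratio of 54.1 with an interval of 14.9 to 448. Chrdl1 fell by 3.64 (by 2.88 without sham 1), so antagonists moved in both directions.

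Genes listed as feedback inhibitors of signalling were among the rises, and whether they damped signalling was not tested. Of 37 genes listed for MAPK, JAK and NF-kB signalling, 18 were higher and 6 lower, with a median of 0.63. Socs3, which is induced by and then blocks STAT3, stood at 88.1, 125 and 63.3 CPM in uIRI against 3.98 and 3.59 in sham (4.60 ± 0.33, adjusted p = 3.17e-05). Nfkbiz, an inducible nuclear IkB protein, stood at 89.5, 94.1 and 95.9 CPM against 14.3 and 19.1 (2.48 ± 0.21). Nfkbia, which encodes the classical inhibitor IkB-alpha, stood at 96.7, 111 and 90.4 CPM against 25.6 and 32.7 (1.77 ± 0.18). For all 3 genes every uIRI library lay above both sham libraries. Nfkbie and Spred3, inhibitors of NF-kB and of Ras signalling, rose by 3.09 ± 0.29 and 2.68 ± 0.25.

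Downstream of G protein-coupled receptors, 9 of 15 regulators of G protein signalling were higher and 1 lower, with a median of 1.64 (2.56 without sham 2). Rgs10 stood at 27.5, 20.6 and 29.7 CPM in uIRI against 2.72 and 1.84 in sham (3.51 ± 0.26, adjusted p = 3.38e-05), and Rgs2, which damps angiotensin and vasopressin signalling, at 55.1, 34.7 and 61.6 CPM against 14.8 and 17.7 (1.64 ± 0.26). Of 45 cyclic nucleotide enzymes, 20 were higher and 8 lower, with a median of 0.49. Adcy7, an adenylyl cyclase abundant in leukocytes, stood at 156, 142 and 143 CPM against 7.19 and 10.1 (4.08 ± 0.18, adjusted p = 1.79e-05), among the smallest adjusted p-values of the table. Both subunits of the nitric oxide receptor were higher: Gucy1a3 rose from 16.4 and 21.8 CPM to 271, 216 and 151 (3.47 ± 0.31) and Gucy1b3 from 6.70 and 9.48 to 37.9, 35.8 and 29.3 (2.08 ± 0.20). These subunits are known from pericytes and smooth muscle, and the fibroblast and pericyte markers rose beside them.

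Purinergic signalling, by ATP and adenosine outside the cell, had 17 of 31 genes higher and 8 lower, with a median of 0.71. P2ry6, a receptor for UDP, stood at 41.1, 32.8 and 44.9 CPM in uIRI against 2.23 and 2.49 in sham (4.06 ± 0.26, adjusted p = 2.76e-05). P2rx7, the ATP-gated channel of macrophages, stood at 41.4, 27.6 and 59.1 CPM against 2.53 and 2.67 (4.03 ± 0.44), and Adora2a, an adenosine receptor, at 19.6, 15.7 and 12.8 CPM against 3.40 and 4.42 (2.03 ± 0.26). Receptors of both ATP and adenosine were higher. On the side of removal, Adk, the kinase that clears adenosine, fell from 217 and 172 CPM to 36.7, 60.1 and 46.8 (-2.02 ± 0.20, adjusted p = 0.000106), and Entpd5, a diphosphatase of the endoplasmic reticulum, fell by 2.79.

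Among 25 vasoactive peptides and receptors, 10 were higher and 5 lower, with a median of 0.49. Edn1, the vasoconstrictor endothelin-1, stood at 17.5, 18.4 and 20.3 CPM in uIRI against 3.01 and 3.50 in sham (2.52 ± 0.26, adjusted p = 0.000111), and its receptor gene Ednra at 45.3, 25.3 and 22.2 CPM against 3.01 and 3.04 (3.35 ± 0.50). Avpr2, through which vasopressin opens the collecting duct to water, fell from 24.0 and 30.1 CPM to 3.13, 4.36 and 5.84 (-2.61 ± 0.30, adjusted p = 0.000177). Kng2, a kininogen, fell by 1.95, and Aplnr, the apelin receptor of vessels, rose by 1.28 ± 0.17.

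Coagulation factors changed in both directions in a tissue that is not their main source. Of 23 tested, 10 were higher and 7 lower, with a median of 1.39. F13b, the carrier subunit of the fibrin-stabilising factor, stood at 5.45, 20.6 and 19.9 CPM in uIRI against 238 and 209 in sham (-3.87 ± 0.46, adjusted p = 0.000225). F10, which activates thrombin, had 739 counts in uIRI (11.2, 5.98 and 11.4 CPM), 2 in sham 1 and 0 in sham 2, a ratio of 99.9 with an interval of 27.6 to 827. F2r, the thrombin receptor, rose from 49.5 and 45.9 CPM to 228, 278 and 159.8 (2.22 ± 0.23). The anticoagulants Pros1 and Thbd, protein S and thrombomodulin, rose by 2.53 ± 0.22 and 1.97 ± 0.21, and procoagulant and anticoagulant genes were thus both among the rises. Summed over 10 genes, liver transcripts were lower beside them, at 562 and 382 CPM in sham and 16.1, 55.9 and 37.9 CPM in uIRI. In sham most of that sum was Apob, at 375 and 279.5 CPM, while Alb stood at 8.84 and 5.985 CPM. Where these transcripts came from was not tested.

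Of 45 serpins and other protease inhibitors, 23 were higher and 10 lower, with a median of 1.15. Serpina3g, an intracellular inhibitor of cathepsins in activated lymphocytes, stood at 70.2, 51.7 and 67.1 CPM in uIRI against 2.23 and 2.12 in sham (4.85 ± 0.22, adjusted p = 1.79e-05). It belongs to a cluster of near-identical genes, so its reads could be shared with relatives. Serping1, the inhibitor of complement C1, stood at 788, 601 and 474 CPM against 48.8 and 52.7 (3.61 ± 0.35). Serpina10, which inhibits factor X with protein Z, rose from 1.17 and 0.645 CPM to 33.4, 80.2 and 54.2 (5.95 ± 0.51), beside the rise of F10. Wfdc15b, a small inhibitor, fell from 83.1 and 94.3 CPM to 6.94, 6.38 and 11.9 (-3.40 ± 0.31).

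Enzymes that finish sugar chains changed in both directions, more of them up than down. Of 43 sialyl, fucosyl and galactosyl transferases, 25 were higher, 13 lower and 5 not called, with a median of 0.83. St6gal1, which caps N-glycans with sialic acid, stood at 114, 99.8 and 87.7 CPM in uIRI against 20.9 and 30 in sham (1.98 ± 0.19, adjusted p = 8.77e-05). St3gal1 and St3gal4 rose by 1.73 ± 0.16 and 1.67 ± 0.18, and B4galt2 by 2.94 ± 0.26. Among 26 O-GalNAc transferases, mucins and galectins, 13 were higher and 5 lower, with a median of 0.98. Muc4, a membrane mucin of mucosal epithelia, had 2545 counts in uIRI (31.9, 24.6 and 43.7 CPM), 2 in sham 2 and 0 in sham 1, a ratio of 344 with an interval of 95.2 to 2843. Muc1 rose from 12.1 and 19.9 CPM to 87.9, 77.5 and 116 (2.55 ± 0.30), and the galectins Lgals3 and Lgals9 by 2.63 ± 0.28 and 2.41 ± 0.18. Galnt6 and Galnt12, which start O-glycans, rose by 3.59 ± 0.33 and 2.52 ± 0.22. The hyaluronan and heparan sulfate list had 12 of 34 higher and 6 lower, with a median of 0.35. Sulf1, which trims sulfate from heparan chains, rose from 6.70 and 6.81 CPM to 89.7, 60.8 and 41.5 (3.24 ± 0.41), and Ugdh, which makes their glucuronic acid precursor, fell by 1.43.

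Of 27 genes named for bone and cartilage, 15 were higher and 4 lower, with a median of 2.01. The 4 lower included Alpl (-1.36 ± 0.48, adjusted p = 0.0402) and Phospho1 (-1.17 ± 0.34, adjusted p = 0.0187). Ibsp and Bglap2, also listed, had 0 counts in uIRI and sham. These members were named after their values were seen. Mgp, an inhibitor of calcification in vessels and cartilage, stood at 1191, 1120.1 and 726 CPM in uIRI against 64.3 and 48.5 in sham (4.17 ± 0.50, adjusted p = 0.000219). The Runt transcription factors rose together: Runx1 by 3.55 ± 0.38 (4.48 without sham 2), Runx2 by 3.01 ± 0.34 and Runx3 by 3.01 ± 0.27. Ctsk, the collagen-degrading protease of osteoclasts, also expressed by fibroblasts and macrophages, rose from 3.11 and 3.68 CPM to 92.1, 58.6 and 48.6 (4.29 ± 0.42). Most members are also expressed by leukocytes or fibroblasts, whose summed markers are given above.

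Of 37 kidney development factors, 17 were higher and 5 lower, with a median of 0.60. Sox4 stood at 184, 159 and 157 CPM in uIRI against 23.4 and 40.8 in sham (2.38 ± 0.24, adjusted p = 0.000103). Sox9, of regenerating tubules, rose from 0.777 and 1.66 CPM to 23.5, 33.6 and 22.3 (4.42 ± 0.39; 5.10 without sham 2), and Sox11 from 0.486 and 0.46 to 10.5, 9.64 and 7.11 (4.25 ± 0.42). Cdh6, the cadherin of the early proximal tubule, rose by 2.98 ± 0.33, and Tcf21, of the stroma and podocyte, by 2.66 ± 0.27. Imprinted genes were close to the background, 9 of 30 higher and 6 lower with a median of 0.45, and single members went far in both directions. Slc22a18 fell from 835 and 603 CPM to 29.0, 92.3 and 66.9 (-3.52 ± 0.42, adjusted p = 0.00023) and Phlda2, its neighbour in the same imprinted cluster, by 3.14, whereas Ndn rose by 2.31 ± 0.34.

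In the list of nerve, glia and neurotrophic factors, 11 of 26 genes were higher and 3 lower, with a median of 1.52. Ngfr, a neurotrophin receptor, stood at 15.1, 18.0 and 13.0 CPM in uIRI against 2.91 and 1.47 in sham (2.81 ± 0.33, adjusted p = 0.000214; 3.40 without sham 1). It was low in level and higher in every uIRI library. Mbp, of myelin but also expressed in leukocytes from an alternative start, rose by 1.65 ± 0.16. Nrtn, a ligand of the RET family of receptors, fell by 1.92.

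Paralogues were compared as 29 pairs, whose members can differ in substrate, compartment or cell type. In most pairs the first member was the form known from the mature tubule or the more abundant one. In 5 pairs the first member was lower and the second higher, in 10 both were lower, in 2 both were higher, and in 12 at least 1 was not called. Here the levels are FPKM, which are per length, and the share of the first in the sum of the pair does not depend on how libraries are scaled. The glutamate carrier Slc1a1 went from 86.1 to 29.9% of its pair with the glutamine carrier Slc1a5. By library its share was 18.8, 38.7 and 32.0% in uIRI 1, 2 and 3 and 87.3 and 85.0% in sham 1 and 2. The microvillar plastin Pls1 went from 83.8 to 30.6% against the leukocyte plastin Lcp1. The cytosolic Pck1 of gluconeogenesis went from 97.8 to 59.6% against the mitochondrial Pck2, and Ppara from 91.9 to 47.2% against Pparg. In each of these 4 pairs the share was lowest in uIRI 1. Without sham 1 the count of such pairs was 3, and Slc1a5 was among the genes then not called.

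**Figure D3:**
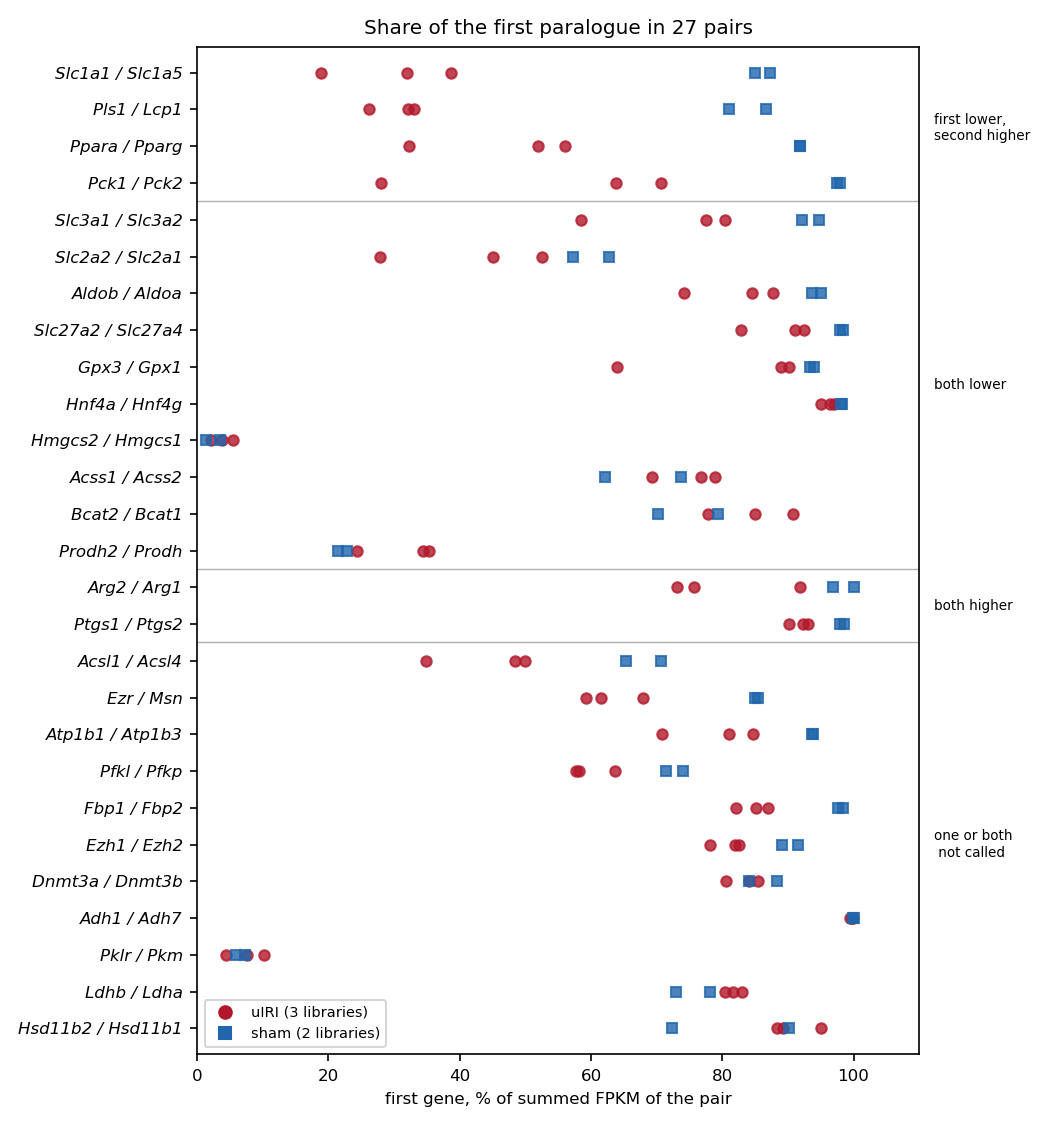
Share of the first-named paralogue in the summed FPKM of its pair, in percent, for 27 of the 29 pairs in each library (red circles, uIRI; blue squares, sham). The 4 pairs shown whose first member was lower and second higher are at the top, and for these the groups do not overlap.

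The changes behind these shares were not of equal size. Slc1a5 rose by 0.88 ± 0.22 (adjusted p = 0.00844; 0.0674 without sham 1) and Slc1a1 fell by 2.97. In the pair of Ezr and Msn, ezrin of the microvillus was not called (-0.30 ± 0.18, adjusted p = 0.184) while moesin rose from 225 and 238 CPM to 608, 728 and 569.7 (1.46 ± 0.18, adjusted p = 0.00029), and the share of Ezr went from 85.2 to 63.0%. The sodium pump subunit Atp1b1 fell by 1.86 while Atp1b3 had a change of 0.05 ± 0.14 (adjusted p = 0.803).

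Of 46 ribosome biogenesis genes, 8 were higher and 3 lower; of 54 splicing regulators, 14 and 3; and of 45 genes of the nuclear pore and its carriers, 3 and 8. Their medians were 0.11, 0.20 and -0.17. With library size alone 33 were higher and 0 lower, 46 and 2, and 25 and 0, in the same order, with medians of 0.77, 0.86 and 0.50 beside 0.73 for all genes. Of 22 cytosolic aminoacyl-tRNA synthetase genes 1 was higher and 6 lower, with a median of -0.18 (0.49 on the library-size scale, with 13 higher and 1 lower). A narrow interval, in which the 95% interval of the log2 change lies inside -0.5 to 0.5, held 1226 genes (7.40% of those tested), among them 9 of the 22 synthetase genes, 12 of 54 splicing regulators and 8 of 46 ribosome biogenesis genes. Abundant genes in that interval were Eef1a1, the elongation factor that brings tRNA to the ribosome, at 3923, 4348 and 3984 CPM in uIRI against 4345 and 3858 in sham, and Ctnnb1, beta-catenin, at 581, 698 and 591 CPM against 616 and 656. For both, the groups overlapped. Ddx5, Sptbn1, Rpl4, Hnrnpa2b1 and Plxnb2 were among the 12 most abundant of this kind. These genes are flat only relative to the TMM scale: with library size alone the same 7 genes were called higher, by 0.55 (Sptbn1) to 0.82 (Rpl4) on the log2 scale. The number in the interval fell to 345 without sham 2, 434 without sham 1, 731 without uIRI 3 and 767 without uIRI 2.

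Some regulators inside these lists did change. Among splicing regulators, Rbm47 and Esrp2, both known from epithelia, fell from 232 and 235 CPM to 59.1, 68.4 and 84.2 (-1.73 ± 0.20, adjusted p = 0.000218) and from 81.1 and 74.3 to 28.3, 34.8 and 37.6 (-1.21 ± 0.15, adjusted p = 0.000302). Rbfox2, which promotes mesenchymal exon choices, rose from 32.9 and 38.7 CPM to 109.9, 86.6 and 87.3 (1.40 ± 0.15, adjusted p = 0.000155), and Celf2 rose by 1.89 ± 0.30. Among 46 genes of DNA methylation, polycomb and deacetylases, 14 were higher and 5 lower, with a median of 0.19; Uhrf1, which maintains methylation at replication, rose by 2.91 ± 0.28 and Dnmt1 by 0.86 ± 0.12. Of 31 histone genes and chaperones, 14 were higher and 8 lower, with a median of 0.12. The chaperones Chaf1b and Asf1b, active in S phase, rose by 2.16 ± 0.22 and 3.14 ± 0.35, while the histone genes Hist1h2bc and Hist1h1c, whose transcripts can be polyadenylated outside S phase, fell by 2.19 and 1.52.

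The calls in membrane traffic and autophagy depended on the scaling. Of 50 coat and tether genes between the endoplasmic reticulum and the Golgi, 27 were lower and 2 higher, with a median of -0.41 (0.26 on the library-size scale, with 19 higher and 4 lower). Sar1b, the GTPase that starts COPII coats, stood at 44.3, 48.1 and 45.7 CPM in uIRI against 138 and 115 in sham (-1.46 ± 0.12, adjusted p = 5.36e-05), and Kdelr3, which returns escaped proteins to the endoplasmic reticulum, was higher, from 2.23 and 2.76 CPM to 34.8, 27.5 and 17.9 (3.42 ± 0.37, adjusted p = 0.000146). Of 48 autophagy genes, 23 were lower and 3 higher, with a median of -0.43 (0.25 on the library-size scale, with 18 higher and 4 lower). Pink1, which marks damaged mitochondria, fell from 529 and 439 CPM to 116, 147 and 153 (-1.80 ± 0.20), and Bnip3, a mitophagy receptor, by 1.92. Tfe3, a transcription factor for lysosome and autophagy genes, rose by 0.90 ± 0.14 instead. Of 52 RAB GTPases, 13 were higher and 18 lower, with a median of -0.22 (0.45 on the library-size scale, with 25 higher and 4 lower). Rab31 rose from 22.7 and 20.5 CPM to 149.5, 148 and 101 (2.62 ± 0.22), and Rab7b, of monocyte lysosomes, rose by 3.35 ± 0.31, while Rab27a fell by 1.41.

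Of 1256 long noncoding RNAs tested, 16.2% were higher and 19.1% lower, beside 29.3% and 27.1% of 14924 protein-coding genes. Of 40 listed noncoding and microRNA host transcripts, 14 were higher and 3 lower, with a median of 0.43. Dnm3os, the host of a microRNA cluster known from fibroblasts, transcribed opposite to Dnm3, stood at 26.7, 27.6 and 21.9 CPM in uIRI against 3.40 and 3.78 in sham (2.82 ± 0.28, adjusted p = 0.000104). Snhg11 fell from 183 and 149 CPM to 28.3, 45.5 and 49.0 (-2.02 ± 0.26, adjusted p = 0.000303). AI662270 and AU020206, long noncoding genes named by their size of change, rose by 3.65 ± 0.35 (4.24 without sham 1) and 2.52 ± 0.27. Hnf4aos, transcribed opposite to the tubule factor gene Hnf4a, fell from 11.8 and 9.67 CPM to 0.303, 1.69 and 0.942 (-3.45 ± 0.57; -4.14 without uIRI 2) beside Hnf4a, which fell by 2.21, and without knowledge of strand the reads of such opposite pairs cannot be told apart where they overlap.

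Promoters were searched for short sequences bound by known factors, in windows from 250 bases before to 50 after the start of transcription, on both strands. RefSeq promoters on GRCm38.p6 were used, with those on chromosome 18 left out. This gave 32851 in all, and 9480 tested genes matched by symbol to exactly 1. The HNF1 sequence, GTTAAT then any base then ATT, of the hepatocyte nuclear factors that keep tubule identity, was in 0.399% of all promoters and 0.411% of those of the tested genes. It was in 0.841% of 2615 genes that were lower, 0.225% of 2667 that were higher, and 2.50% of the 521 that were at least 4-fold lower. The NF-kB sequence, GGGA then any base then TTTCC, was in 0.411% of all promoters and 0.475% of the tested, in 1.05% of the genes that were higher and 0.229% of those that were lower. The interferon response sequence, GAAA then any 2 bases then GAAA, was in 3.44% of all, 3.21% of the tested, 4.76% of the higher and 2.49% of the lower. For HNF4, CAAAGTCCA was in 0.475% of all, 0.464% of the tested, 0.562% of the higher and 0.574% of the lower. AP-1, TGANTCA, was in 7.81, 5.26, 6.94 and 4.70% in the same order, the cyclic AMP response sequence TGACGTCA in 1.79, 3.08, 2.70 and 2.75%, and E2F, TTTCCCGC, in 1.07, 1.99, 2.47 and 1.91%. The cyclic AMP response sequence was thus less frequent in both called classes than over the tested genes. Among genes at least 4-fold higher and at least 4-fold lower, AP-1 was in 8.96 and 8.25%, so it was frequent in both. HNF4 was in 0.88 and 1.34% of these. The HNF1, HNF4 and NF-kB sequences were rare in every class, so their shares rest on few genes. These were 22 lower genes for HNF1, 28 higher genes for NF-kB, and 15 higher and 15 lower genes for HNF4. In the classes of at least 4-fold change the shares rest on 13 lower genes for HNF1 and 19 higher genes for NF-kB. For HNF4 they rest there on 11 higher and 7 lower genes. A match describes letters in a window, not binding.

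**Figure D4:**
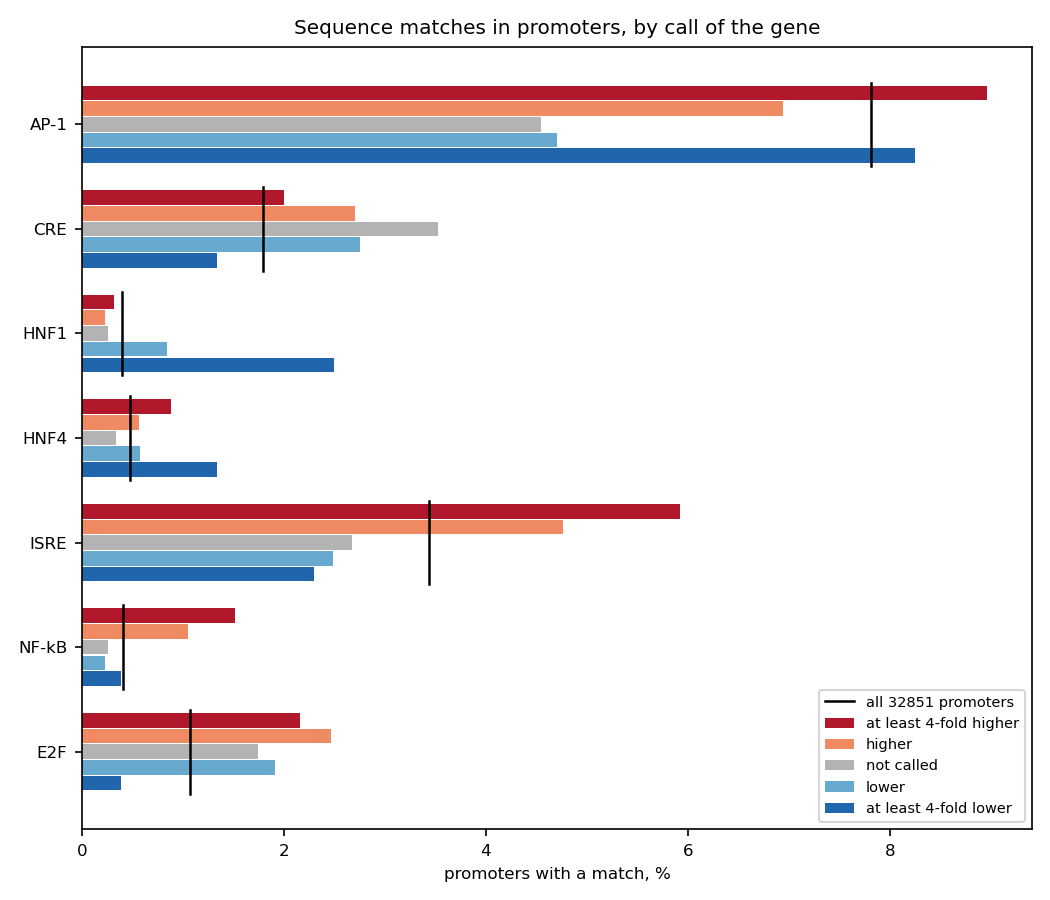
Share of promoters with at least 1 match, in percent, for 7 sequences, among tested genes that were higher, not called or lower in uIRI, and among those at least 4-fold higher or lower. The vertical line across each group of bars is the share among all 32851 promoters searched. The HNF1 bar is longest for genes at least 4-fold lower, 2.50%, and the NF-kB bar for genes at least 4-fold higher, 1.52%.

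The 250 bases before the start are shown for 5 genes described here that hold such a match, 3 that were lower and 2 that were higher, 5′ to 3′ on the strand of the gene with the match in capitals. F13b and Prodh2, the latter a hydroxyproline dehydrogenase that fell from 82.0 and 78.9 CPM to 8.89, 31.7 and 33.8 (-1.70 ± 0.49, adjusted p = 0.0179; 0.0784 without sham 1, 0.0638 without sham 2), hold the HNF1 letters on the opposite strand, chr1:139501457-139501706 and chr7:30493408-30493657, both plus. Treh holds the HNF4 letters on the opposite strand, chr9:44672983-44673232, plus. Nfkbia holds the NF-kB letters on the opposite strand, chr12:55492648-55492897, minus. Plxnc1 holds the interferon response letters, chr10:94944846-94945095, minus. The match begins 55 bases before the start in F13b, 128 in Prodh2, 71 in Treh, 29 in Nfkbia and 118 in Plxnc1.
F13b: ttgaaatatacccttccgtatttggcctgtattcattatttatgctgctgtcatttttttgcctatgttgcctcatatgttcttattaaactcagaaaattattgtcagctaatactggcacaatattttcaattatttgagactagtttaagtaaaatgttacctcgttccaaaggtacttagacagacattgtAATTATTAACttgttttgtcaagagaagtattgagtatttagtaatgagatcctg
Prodh2: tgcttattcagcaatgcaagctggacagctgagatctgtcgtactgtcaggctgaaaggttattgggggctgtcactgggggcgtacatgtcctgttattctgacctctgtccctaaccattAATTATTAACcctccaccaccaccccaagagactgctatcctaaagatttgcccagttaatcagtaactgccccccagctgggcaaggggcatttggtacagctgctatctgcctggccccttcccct
Treh: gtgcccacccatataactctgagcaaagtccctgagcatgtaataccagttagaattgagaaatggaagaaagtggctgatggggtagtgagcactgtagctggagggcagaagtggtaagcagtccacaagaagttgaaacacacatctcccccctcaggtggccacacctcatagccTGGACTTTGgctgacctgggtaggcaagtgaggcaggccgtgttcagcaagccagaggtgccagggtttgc
Nfkbia: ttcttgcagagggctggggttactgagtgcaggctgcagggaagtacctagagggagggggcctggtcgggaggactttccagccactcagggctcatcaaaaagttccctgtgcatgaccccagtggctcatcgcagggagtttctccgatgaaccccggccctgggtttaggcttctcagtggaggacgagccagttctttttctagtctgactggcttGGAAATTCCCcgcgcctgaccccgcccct
Plxnc1: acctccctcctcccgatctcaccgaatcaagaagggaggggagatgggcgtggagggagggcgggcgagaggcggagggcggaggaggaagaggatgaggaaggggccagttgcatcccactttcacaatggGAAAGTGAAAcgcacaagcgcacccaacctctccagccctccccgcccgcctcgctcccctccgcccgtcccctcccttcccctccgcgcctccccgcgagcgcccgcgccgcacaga

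At least 1 CPM in all 3 uIRI libraries with 0 counts in both sham libraries was seen for 63 genes, and the opposite for 1, the lens crystallin and small heat shock protein gene Cryaa, at 2.62 and 1.66 CPM in sham. These numbers cannot be compared, since the first asks for 0 counts in 2 shallower libraries and the second in 3 deeper ones. With sham set to 3 counts over the group, Mmp7, a matrilysin known as a urinary marker of tubule injury, was at least 312-fold higher, at 85.0, 15.7 and 23.7 CPM in uIRI, and at least 135-fold without uIRI 1, a bound added after seeing the data. Its adjusted p was 0.0035 by edgeR and 0.0581 by limma-voom. Other examples were chosen after their values were seen. Sprr2f, a precursor of the cornified envelope of skin, was at least 81.8-fold higher, and Sprr2g of the same family at least 30.9-fold. Il1f6, which encodes the epithelial cytokine IL-36 alpha, was at least 36.8-fold higher and Scgb1a1, the club cell secretory protein of the airway, at least 22.3-fold. These 5 genes were taken from those with 0 counts in both sham libraries, so their absence from sham was fixed by that rule. Which cells expressed them was not tested.

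The 3 uIRI libraries did not depart from sham to the same extent. Among the 4361 genes that were lower, uIRI 1 was the lowest of the 3 in 75.7%, and among the 4683 that were higher it was the highest in 57.3%. Over all genes tested it was the lowest in 38.5% and the highest in 33.5%. Gpx3, the plasma glutathione peroxidase made by the proximal tubule, stood at 625, 5779 and 4956 CPM in uIRI against 22654 and 21356 in sham (-2.54 ± 0.72, adjusted p = 0.016), a spread of 3.21 log2 units within uIRI; without sham 1 its adjusted p was 0.0611. Slc22a6 and Slc22a8, the main organic anion transporters, stood at 33.6, 175 and 124 and at 10.6, 56.4 and 39.6 CPM, lowest in uIRI 1 and all far below sham. Gpnmb, a marker of lipid-laden macrophages, stood at 379, 38.6 and 217 CPM in uIRI against 0.0972 and 0.184 in sham, lowest in uIRI 2 and highest in uIRI 1.

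**Figure D5:**
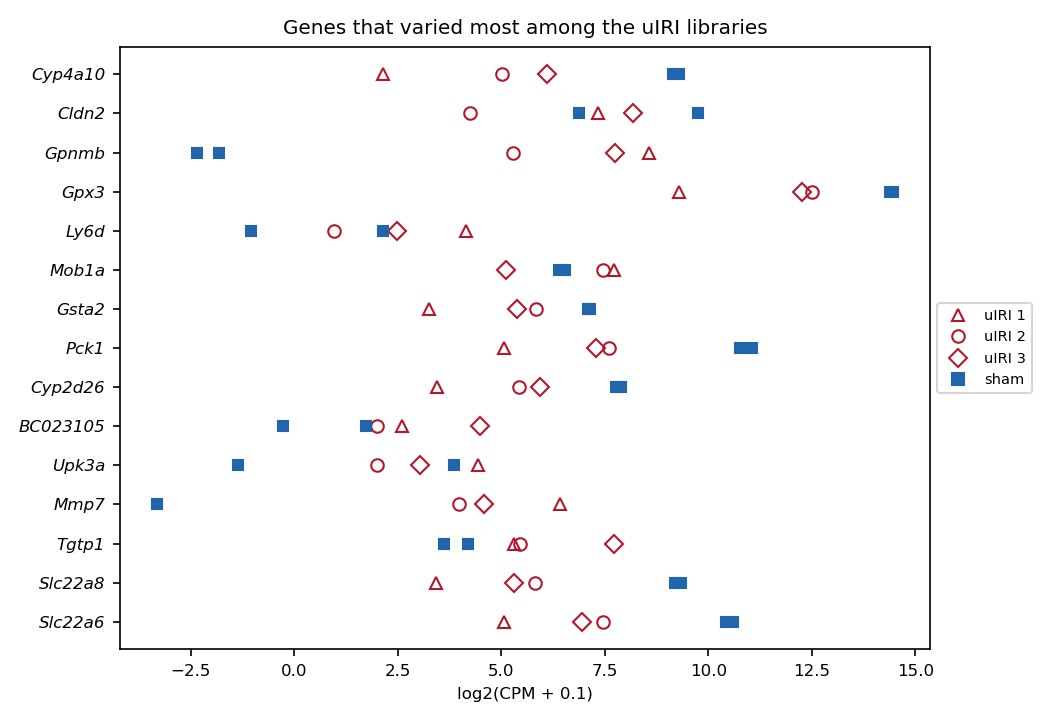
CPM on a log2 axis, with a small constant added so that 0 can be drawn, of the 15 genes that varied most among the uIRI libraries, with a mean FPKM of at least 10 in uIRI (triangles, circles and diamonds, uIRI 1, 2 and 3; blue squares, sham). Of the tubule genes Gpx3, Pck1, Slc22a6 and Slc22a8, uIRI 1 is the lowest, and for Cldn2, Ly6d, Mob1a and Upk3a the groups overlap.

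For several of the most variable genes the groups overlapped or 1 library stood apart. Cldn2, the paracellular sodium pore of the proximal tubule, stood at 163, 19 and 289 CPM in uIRI against 863 and 117 in sham, with each group spanning several fold (-1.64 ± 1.28, adjusted p = 0.305). Its change ran from -2.44 without sham 2 to 0.44 without sham 1. Mob1a, a Hippo pathway adaptor, stood at 210.4, 175 and 34.8 CPM in uIRI against 84.6 and 92.8 in sham, where uIRI 3 alone was low (0.66 ± 0.58, adjusted p = 0.361). Without uIRI 3 it was called higher (1.12, adjusted p = 0.00131). Upk3a, of the urothelium, stood at 21.5, 3.89 and 8.05 CPM in uIRI against 0.291 and 14.5 in sham (0.59 ± 1.5, adjusted p = 0.76), and Ly6d, also known from stratified epithelia, at 17.7, 1.83 and 5.46 CPM against 0.389 and 4.33 (1.81 ± 1.09, adjusted p = 0.189). Both were low in sham 1 and present in sham 2. Tgtp1, an interferon-induced GTPase with a near-identical copy, was at 39.7, 43.6 and 211 CPM in uIRI, highest in uIRI 3, and at 18.2 and 12.2 in sham (2.69 ± 0.85, adjusted p = 0.0252). Its change was 1.46 without uIRI 3, and its adjusted p was 0.0928 without sham 1 and 0.132 without sham 2.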

How the data were processed

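RNA sequencing of mouse kidney gave 8 libraries in 3 groups, taken from the labels. The deposited table holds raw read counts per gene and FPKM values computed by the authors. Per the submitters' processing notes, the tools named are Bowtie2 2.2.6, HISAT2 2.0.4, SAMtools 1.9, StringTie 1.3.3b, FastQC 0.10.1 and edgeR 3.2.0, and the build GRCm38. The sources used here do not give their roles, the read counter, its strand setting or the annotation release. Depth was 11592986 to 24300112 counts per library.

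Counts of all 8 libraries were fitted in edgeR 4.0.16 (R 4.3.3) with filterByExpr (minimum count 10), TMM factors and the quasi-likelihood test, with 5 residual degrees of freedom. Of 34745 genes listed, 16576 were tested, and p-values were adjusted by Benjamini-Hochberg over these, with a threshold of 0.05. The code was tested on simulated data. FPKM served for shares within pairs and for filters on level. Genes with 3 or fewer sham counts were given as counts with exact 95% intervals, or against a floor of 3 counts over the group, which cover counting error only.

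The members and lists were chosen with earlier results of these data known, and the leukocyte and fibroblast markers were added after the results were seen. Genes were named from each list by smallest p (all members of lists of 15 or fewer), from the paralogue pairs, and as the largest gains and losses in CPM, the most abundant within a narrow interval, the widest spread among uIRI, and the largest changes among long noncoding RNAs; those outside this rule are said to be. Promoters came from RefSeq (GRCm38.p6), without chromosome 18. Alternatives were DESeq2 1.42.0, limma-voom (limma 3.58.1), other dispersions, scalings and filters, fewer libraries and a replicate block. Figures used Python 3.11.15 and matplotlib 3.10.9. Some genes, pairs and 1 list are not reported here.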

Additional observations from a re-analysis of the deposited data

How the results depend on the processing

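The count of genes called was 9044 and ran from 7959 to 11033 over the alternatives that kept all libraries of both groups, and from 6386 (without sham 1) to 9863 (without uIRI+MSC 3) when 1 library was left out. Scaling by library size alone gave 9044 higher and 1989 lower, the first number equal to the total above by coincidence, and put 773 genes in the narrow interval in place of 1226. That interval held 345 to 1773 genes when 1 library was left out, and 47 when narrowed to -0.3 to 0.3. Pairs with the first member lower and the second higher numbered 3 to 5 when 1 library was left out. With the replicate number as a block, 7959 genes were called and 749 lay in the narrow interval, and Cldn2, not called above, was called (-2.47, adjusted p = 0.00192). The correlation of deviations was -0.209 for uIRI 1 with sham 1 and -0.179 for uIRI 2 with sham 2. For uIRI 1, 2 and 3 with the uIRI+MSC library of the same number it was -0.051, 0.072 and -0.095. With only 2 sham libraries their deviations mirror each other, so the sham values cannot show whether the numbers pair the libraries. Of 221 named genes put to these alternatives, 205 were called, and 197 of these stayed called in all 18 alternatives that could test them. Genes were named from each list by smallest p in the main fit, so staying called was favoured in advance. The share does not describe all called genes. With library size alone, 6 narrow-interval genes changed sign: Actn4 to 0.66, Ctnnb1 to 0.63, Ddx5 to 0.60, Eef1a1 to 0.66, Plxnb2 to 0.65 and Sptbn1 to 0.55. Without 1 sham library, the lone sham library was assumed to vary like the other groups. With 2 sham libraries and 14588506 and 14185677 counts in them, genes near 0 in sham have wide intervals, and a gene not called is not shown to be unchanged.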

Other observations

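Markers of other tissues were measured as lists of 10 genes. Of the 9 lymphatic endothelium genes tested, 5 were higher and 1 lower, with a median log2 change of 0.91 beside 0.06 for all genes. Lyve1, Mmrn1 and Reln were not called (adjusted p of 0.161, 0.357 and 0.332 by edgeR), and Ccl21a had 0 counts in uIRI and sham. Pdpn, podoplanin, reached 52.8, 37.1 and 43.3 CPM in uIRI against 5.73 and 7.64 in sham (2.73 ± 0.21, adjusted p = 4.15e-05 by edgeR), and the integrin gene Itga9 rose by 2.17 ± 0.23. Prox1, which sets lymphatic fate and is also expressed in tubules, was lower (-1.79 ± 0.55, adjusted p = 0.0224), but its change was -0.88 without sham 2, and its call was lost there, without uIRI 2 or uIRI 3, and with library size alone.

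Krt20, a keratin of the urothelial surface, had 0 counts in sham 1 and 4 in sham 2 and stood at 10.3, 31.8 and 20.2 CPM in uIRI. The other 8 urothelial genes tested were not called. Cela1, an elastase named for the pancreas, stood at 83.8 and 78.8 CPM in sham and 9.26, 21.3 and 17.4 in uIRI (-2.35 ± 0.38, adjusted p = 0.00103), while 5 of the 10 pancreas genes, both insulin genes among them, had 0 counts in all 5 libraries. Pvalb, listed for muscle and also known from the distal convoluted tubule, stood at 16.9 and 13.4 CPM in sham and 0, 0.0733 and 0.235 in uIRI (-7.27 ± 0.86; -6.62 without uIRI 1 and -8.49 without uIRI 3), and the muscle myosin genes Myh1 and Myh4 had 0 counts.

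By chromosome, the share of tested genes that were higher ran from 23.4% on chromosome 12 to 32.5% on chromosome 7 among the autosomes, and was 32.3% on X. The share that were lower ran from 21.5% on chromosome 17 to 30.3% on chromosome 10 among the autosomes, and was 20.1% on X.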
